A study of Mus musculus with 80 samples.

Results

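Mitosis and G2/M genes are the genes a cell switches on as it leaves S phase and divides. A list of 40 of them was followed in whole lung of 4 strains of mice after styrene, each gene measured by the probe set that carried its symbol alone and had the highest mean over 80 arrays. Of the 40, 38 had such a probe set. Ccnb1 and Nuf2 had none and were not analysed here. Of the 38, 27 passed the level filter (5 or more of the 80 arrays with a log2 signal over 4.28, which is the table-wide median) and were tested among 11406 genes. The 11 that did not pass were Cdc25c, Foxm1, Plk1, Ttk, Melk, Cenpe, Kif11, Kif2c, Kif4, Kif20a and Kif23. The list was drawn up with earlier results of these data known.

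Adult male mice breathed styrene at 10, 40 or 120 ppm, or air alone (0 ppm), for a single session of 6 h, and lungs were taken the next morning. Wild-type mice (WT) of C57Bl/6, mice without CYP2F2 (KO, labelled CYP2F2 knockout), mice with the human gene (TG, labelled CYP2F1 humanized) and CD-1 mice were used, the first 3 on C57Bl/6 per the series design. Cyp2f2 encodes a cytochrome P450 that is abundant in the club cells of mouse airways and that oxidises styrene, and CYP2F1 is the human enzyme of the same subfamily. The sources used here do not give the promoter that drives CYP2F1 or the way the knockout was made. Each of the 16 groups held 5 arrays, labelled biological replicates, and the number of arrays limits the precision. The log2 signal of Cyp2f2 in air was 13.23 ± 0.03 (SD, n = 5) in WT and 13.02 ± 0.09 in CD-1, against 11.68 ± 0.10 in KO and 11.66 ± 0.19 in TG. Over all doses WT arrays held 12.04 to 13.27, CD-1 arrays 12.50 to 13.14, KO arrays 11.51 to 11.89 and TG arrays 11.48 to 12.00, so the KO and TG arrays were lower than the WT and CD-1 arrays and still high on the scale of the table; whether the probes lie in the deleted part is not known here. The median signal of an array lay between 4.53 and 4.60 in WT, between 4.24 and 4.30 in CD-1, between 4.09 and 4.20 in KO, and between 3.84 and 4.14 in TG. For that reason dose was compared with air inside each strain, and strains were compared in air after each array was centred on its own median. No pair of arrays held identical values, and the correlation between arrays of a group had a median of 0.994.

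Entry into mitosis is set by cyclin-dependent kinase 1, the product of Cdk1, bound to cyclins A and B. Polo-like and Aurora kinases then build the spindle, the checkpoint proteins Bub1, Bub1b, Mad2l1 and Ttk hold back the anaphase-promoting complex until kinetochores are attached, and the centralspindlin partners, Ect2 and anillin drive the cleavage furrow. In resting cells the DREAM complex holds these genes down through a short promoter element, the cell cycle genes homology region (CHR), and in G2 the MuvB core with B-Myb and FoxM1 activates them, often together with NF-Y at CCAAT boxes. Adult lung has few dividing cells, so its mitotic transcripts are scarce. In whole lung more dividing cells and more RNA per cell cannot be told apart.

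The promoters of 5 members are shown because the genes behaved differently in these lungs: Cdk1 and Top2a rose in WT, Ccnb2 did not pass the test, Cenpa fell, and Pttg1 differed between strains. Each runs from 250 bases before to 30 after the RefSeq start, 5′ to 3′ along the gene's strand in GRCm38.p6. Capitals mark CHR letters (TTTGAA or TTCGAA) and CCAAT boxes (CCAAT), on either strand, so a box on the opposite strand reads ATTGG. A CHR on that strand reads TTCAAA.
Cdk1: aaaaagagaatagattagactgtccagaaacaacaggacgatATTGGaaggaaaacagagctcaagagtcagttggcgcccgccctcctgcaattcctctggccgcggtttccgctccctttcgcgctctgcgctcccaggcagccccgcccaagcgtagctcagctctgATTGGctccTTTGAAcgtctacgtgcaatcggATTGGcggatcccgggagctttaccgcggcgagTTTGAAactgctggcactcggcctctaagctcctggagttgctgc
Top2a: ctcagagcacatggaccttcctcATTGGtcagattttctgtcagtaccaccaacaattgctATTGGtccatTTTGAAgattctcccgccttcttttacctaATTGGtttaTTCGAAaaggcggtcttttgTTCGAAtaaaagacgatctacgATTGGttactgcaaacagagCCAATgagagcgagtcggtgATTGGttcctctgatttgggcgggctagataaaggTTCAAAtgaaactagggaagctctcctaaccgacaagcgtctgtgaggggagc
Ccnb2: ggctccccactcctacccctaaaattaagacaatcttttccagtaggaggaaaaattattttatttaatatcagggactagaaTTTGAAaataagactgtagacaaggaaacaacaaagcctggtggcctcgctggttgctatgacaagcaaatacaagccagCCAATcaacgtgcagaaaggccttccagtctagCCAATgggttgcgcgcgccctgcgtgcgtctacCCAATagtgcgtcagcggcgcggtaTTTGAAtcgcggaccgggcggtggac
Cenpa: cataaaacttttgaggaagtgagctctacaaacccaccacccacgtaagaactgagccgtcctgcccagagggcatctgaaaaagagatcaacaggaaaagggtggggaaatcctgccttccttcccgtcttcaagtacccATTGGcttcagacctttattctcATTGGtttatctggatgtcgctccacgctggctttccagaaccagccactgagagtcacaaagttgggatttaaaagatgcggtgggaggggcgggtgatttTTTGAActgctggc
Pttg1: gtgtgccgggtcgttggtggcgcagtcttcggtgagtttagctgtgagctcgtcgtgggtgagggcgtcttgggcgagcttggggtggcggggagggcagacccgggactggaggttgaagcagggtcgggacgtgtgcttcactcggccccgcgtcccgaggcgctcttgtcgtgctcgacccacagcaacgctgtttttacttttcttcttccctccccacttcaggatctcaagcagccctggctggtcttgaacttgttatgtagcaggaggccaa

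Cdk1 (chr10:69352883-69353162, minus strand) held TTTGAA 15 and 71 bases before the start. Top2a (chr11:99024160-99024439, minus strand) held 4 CHR matches and 6 CCAAT boxes. Ccnb2 (chr9:70421525-70421804, minus strand) had CCAAT boxes 21, 54 and 87 bases before the start and TTTGAA 5 bases after it, and Cenpa (chr5:30666636-30666915, plus strand) had CCAAT boxes 86 and 109 bases before the start and TTTGAA 17 bases after it. The window of Pttg1 (chr11:43425952-43426231, minus strand) held neither set of letters. Members with different changes thus carried the same letters. RefSeq promoters of 300 bases were found for 33 of the 40 genes. A CHR match was in 24 of the 33 (72.7%) and in 19.2% of all 32851 promoters, a CCAAT box in 24 (72.7%) and in 37.4%, and both in 21 (63.6%) and in 7.5%. The E2F letters GCGGGAA or GCGCGAA, on either strand, were in 2 of the 33 (6.1%) and in 6.0% of all. These matches describe letters in a window and show no binding.

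In WT lung mitotic genes rose after styrene. At 10 ppm 5 of the 27 tested members were higher than in air and none lower, at 40 ppm 12 were higher and 1 lower, and at 120 ppm 11 were higher and 1 lower (limma, Benjamini-Hochberg adjusted p under 0.05). Of all tested genes 7.67% were higher and 4.9% lower at 10 ppm, 13.7% higher and 12.4% lower at 40 ppm (26% in all), and 14.3% higher and 9.65% lower at 120 ppm, against 18.5%, 44.4% and 40.7% of the tested members higher. The median log2 change of the members was 0.19, 0.39 and 0.34 at the 3 doses, and that of all genes was -0.00, -0.01 and 0.01. The 3 doses were set against the same 5 air arrays, so their values are given side by side. Cdk1, Aurkb, Pbk, Anln and Top2a rose at all 3 doses, Ccna2, Mad2l1, Birc5, Ect2 and Mki67 at 40 and 120 ppm, and Bub1 (120 ppm), Spc25 and Racgap1 (both 40 ppm) at 1 dose. Some members passed the filter mainly through the WT arrays where they were high (Racgap1 in 5 arrays, Aurkb in 10), so the counts are a description of the 27 and not of all 40. The count at 10 ppm moved with single arrays: it was 9 without air replicate 2, 2 without air replicate 3, 3 without air replicate 4, air replicate 5 or 10 ppm replicate 4, and 1 without 10 ppm replicate 5. It was 2 when all 80 arrays were fitted together. The share of all genes called in these runs is not given.

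**Figure D1:**
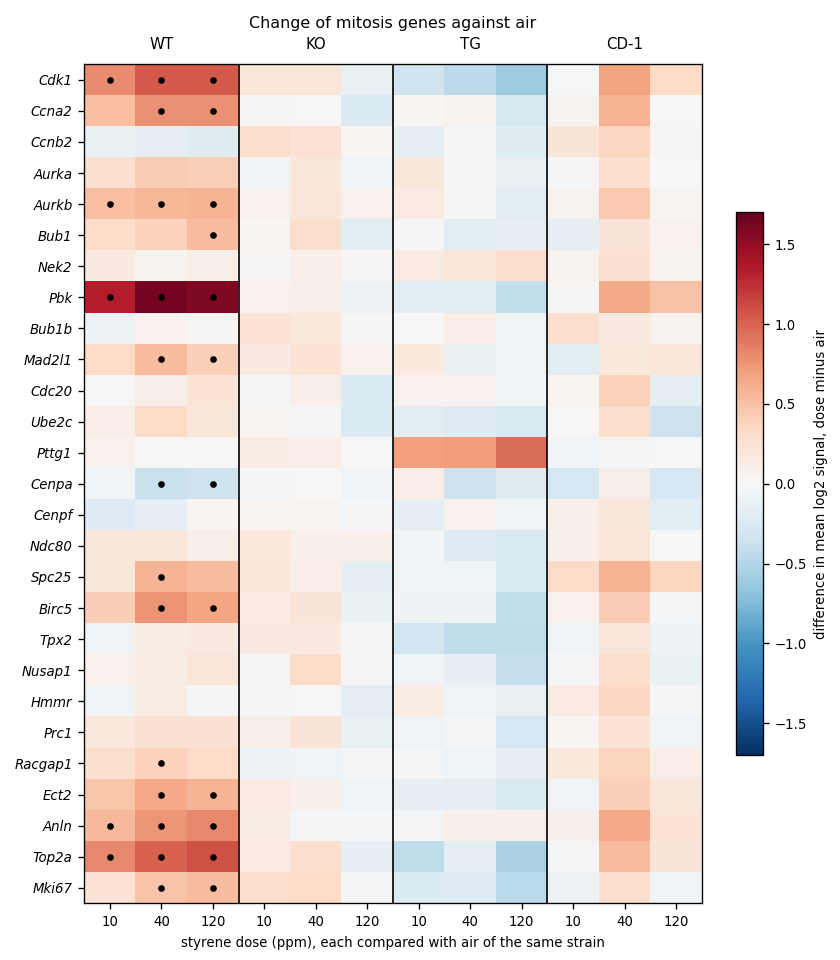
Log2 change against air of each tested member (colour, difference in mean log2 signal; 1 line per gene) at each dose in ppm (x axis) of the 4 strains, with a black dot where the adjusted p was under 0.05. In WT 5, 12 and 11 members were higher at 10, 40 and 120 ppm, and in KO, TG and CD-1 no member passed at any dose.

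Of the cyclin and CDK genes, 3 of 6 were tested, and Cdk1 and Ccna2 rose. Cdk1 signal in WT was 5.69, 6.33, 5.41, 5.15 and 5.06 in air, 6.00, 6.27, 6.44, 6.42 and 6.52 at 10 ppm, 6.35, 5.98, 6.36, 7.27 and 6.90 at 40 ppm, and 6.81, 6.31, 6.29, 6.64 and 6.79 at 120 ppm. Air replicate 2 lay among the treated arrays, and the other 4 air arrays lay below all 15 of them. The log2 change of Cdk1 was 0.80 ± 0.23 (SE; adjusted p = 0.0254 by limma), 1.04 (adjusted p = 0.00252) and 1.04 (adjusted p = 0.00294) at 10, 40 and 120 ppm, the last being 2.06-fold. Ccna2, cyclin A2, which drives S phase and the approach to mitosis, was 5.46, 6.13, 5.23, 4.83 and 4.96 in air and 6.27, 6.03, 6.07, 6.15 and 5.97 at 120 ppm; air replicate 2 again lay among the treated arrays and the other 4 below them. Its change was 0.52 ± 0.21 at 10 ppm (adjusted p = 0.106 by limma), 0.78 at 40 ppm (adjusted p = 0.00909) and 0.78 at 120 ppm (adjusted p = 0.0102). Ccnb2, cyclin B2, a partner of Cdk1 in mitosis itself, had air values of 5.04, 5.47, 4.90, 4.88 and 4.81 and values of 5.06, 4.75, 4.62, 4.81 and 4.84 at 120 ppm, so the groups overlapped. Its changes were -0.12, -0.15 and -0.21 ± 0.16 (adjusted p = 0.672, 0.534 and 0.385 by limma).

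Among the mitotic kinases 5 of 8 were tested, with 2, 2 and 3 higher at the 3 doses. Pbk, the kinase TOPK of dividing cells, had the lowest p of all members. Its signal in WT was 4.88, 5.82, 5.10, 4.59 and 4.37 in air, 5.92, 6.33, 6.21, 6.32 and 6.64 at 10 ppm, 6.50, 6.16, 6.19, 7.32 and 6.70 at 40 ppm, and 6.57, 6.34, 6.53, 6.46 and 6.80 at 120 ppm. The treated arrays lay above every air array at all 3 doses. Groups separated in this way, upward, in 6.07%, 10.1% and 12.1% of all genes at 10, 40 and 120 ppm. Among the 27 tested members it was 1, 2 and 3, so members did not separate more often than all genes. Its log2 change was 1.33 ± 0.23 (2.52-fold, adjusted p = 0.000637 by limma), 1.62 (3.08-fold, adjusted p = 5.78e-05) and 1.59 (adjusted p = 8.12e-05). Aurkb, Aurora B of the chromosomal passenger complex, was close to the filter, at 3.56, 4.20, 3.52, 3.83 and 4.00 in air and 4.19, 4.13, 4.45, 4.56 and 4.67 at 120 ppm, where air replicate 2 overlapped the treated arrays. Its changes of 0.51, 0.56 and 0.58 ± 0.15 passed (adjusted p = 0.0268, 0.0086 and 0.00828 by limma), but another Aurkb probe set, above the filter in 1 of the 80 arrays, gave -0.04, 0.10 and 0.04. Bub1, a kinase of the spindle checkpoint, went from 4.75 ± 0.18 (SD, n = 5) in air to 5.27 ± 0.32 at 120 ppm, a change of 0.52 ± 0.16 (SE; adjusted p = 0.0232 by limma), with values of 4.75, 5.00, 4.82, 4.66 and 4.51 against 4.80, 5.36, 5.43, 5.12 and 5.63. The lowest 120 ppm array was below the highest 2 air arrays. Aurka, the spindle pole Aurora kinase, had changes of 0.27, 0.44 and 0.40 ± 0.19 (adjusted p = 0.377, 0.096 and 0.136 by limma), and Nek2, a centrosome kinase, had 0.16, 0.06 and 0.10.

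All 5 genes of the checkpoint and anaphase group were tested, and 1 rose. Mad2l1, the checkpoint protein that sequesters Cdc20, was 6.42, 6.76, 6.56, 6.35 and 6.15 in air and 6.93, 6.82, 6.77, 7.20 and 7.14 at 40 ppm, where the groups did not overlap, as upward in 10.1% of all genes. The change was 0.34 ± 0.11 at 10 ppm (adjusted p = 0.0561 by limma), 0.52 at 40 ppm (adjusted p = 0.00244) and 0.40 at 120 ppm (adjusted p = 0.0148). Its target Cdc20, an activator of the anaphase-promoting complex, had changes of -0.00, 0.10 and 0.24 ± 0.15. Ube2c, the ubiquitin-conjugating enzyme of that complex, had 0.11, 0.33 and 0.19 ± 0.26, Bub1b had -0.09, 0.08 and 0.02, and Pttg1, securin, had 0.08, -0.01 and 0.01 ± 0.06. None of these 4 passed at any dose.

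Of the centromere and kinetochore genes 5 of 7 were tested, and they moved in both directions. Birc5, survivin, a passenger complex subunit that also inhibits apoptosis, was 4.52, 5.20, 4.38, 4.36 and 4.37 in air and 5.19, 4.94, 5.11, 6.06 and 5.32 at 40 ppm. Air replicate 2 alone lay within the treated range. Its change was 0.42 ± 0.18, 0.76 and 0.67 at 10, 40 and 120 ppm (adjusted p = 0.136, 0.00435 and 0.0109 by limma). Spc25, an Ndc80 complex subunit, rose at 40 ppm by 0.58 ± 0.21 (adjusted p = 0.048 by limma) and at 120 ppm had 0.52 (adjusted p = 0.0772). Cenpa, the histone H3 variant that marks centromeres, fell: it was 4.83, 5.17, 4.70, 4.70 and 4.63 in air, 4.22, 4.64, 4.27, 4.71 and 4.31 at 40 ppm, and 4.36, 4.49, 4.33, 4.61 and 4.52 at 120 ppm. All 120 ppm arrays lay below all air arrays, as in 7.85% of genes, and at 40 ppm the groups overlapped. Its changes were -0.05 ± 0.12, -0.38 (adjusted p = 0.0237 by limma) and -0.35 (adjusted p = 0.0381), and a second Cenpa probe set, below the filter in every array of the series, gave -0.34, -0.41 and -0.24. Ndc80 had changes of 0.19, 0.19 and 0.10 and Cenpf, a large kinetochore protein of G2 and M, -0.22, -0.16 and 0.03, and neither passed.

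No spindle motor or microtubule protein passed among the 3 of 6 that were tested. Tpx2, which loads Aurora A onto the spindle, had changes of -0.06, 0.13 and 0.15 ± 0.16 at the 3 doses. Nusap1, a spindle microtubule bundler, had 0.07, 0.13 and 0.20 ± 0.15, and Hmmr, a spindle-associated protein and hyaluronan receptor, had -0.07, 0.12 and -0.01 ± 0.12.

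Among the midzone and cytokinesis genes 4 of 6 were tested, with 1, 3 and 2 higher at the 3 doses. Anln, anillin, the scaffold of the contractile ring, was 6.16, 6.39, 5.85, 5.52 and 5.92 in air and 6.89, 6.71, 6.64, 6.81 and 6.88 at 120 ppm, and the groups did not overlap there, as upward in 12.1% of all genes. Its change was 0.54 ± 0.17 (adjusted p = 0.0367 by limma), 0.75 (adjusted p = 0.00277) and 0.82 (adjusted p = 0.00166); a second probe set below the filter gave 0.10, 0.00 and 0.06. Ect2, the exchange factor that activates RhoA at the furrow, was 4.67, 5.13, 4.63, 4.48 and 4.65 in air and 5.03, 5.19, 5.11, 6.23 and 5.20 at 40 ppm, where air replicate 2 was above 2 treated arrays. Its change was 0.47 ± 0.19, 0.64 and 0.58 (adjusted p = 0.1, 0.0153 and 0.0292 by limma). Racgap1, a centralspindlin subunit, rose at 40 ppm by 0.39 ± 0.13 (adjusted p = 0.0376 by limma) and had 0.34 at 120 ppm (adjusted p = 0.0717). It exceeded the level filter in 4 WT arrays and 1 CD-1 array. Its 40 ppm call was lost with no level filter, with all 80 arrays in 1 fit and with replicate number in the fit. Prc1, which bundles midzone microtubules, had 0.18, 0.26 and 0.26 ± 0.17.

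The 2 chromosome genes rose. Top2a, the topoisomerase that untangles sister chromatids, was 5.57, 5.79, 5.11, 4.71 and 4.94 in air, 5.66, 6.02, 6.01, 6.15 and 6.33 at 10 ppm, 6.22, 5.68, 5.91, 6.97 and 6.35 at 40 ppm, and 6.40, 5.99, 6.46, 6.34 and 6.36 at 120 ppm. The 120 ppm arrays were above every air array, as in 12.1% of all genes, and at 10 and 40 ppm 1 treated array lay below air replicate 2. Its change was 0.81 ± 0.21, 1.00 and 1.09 (adjusted p = 0.0157, 0.00199 and 0.00123 by limma), 2.13-fold at 120 ppm. Mki67, the proliferation antigen Ki-67 that coats mitotic chromosomes, was 6.50, 6.68, 6.41, 5.85 and 6.09 in air and 7.09, 6.74, 6.80, 6.91 and 6.64 at 120 ppm, where 1 treated array lay below air replicate 2. Its change was 0.23 ± 0.17, 0.49 and 0.53 (adjusted p = 0.406, 0.0427 and 0.0309 by limma).

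**Figure D2:**
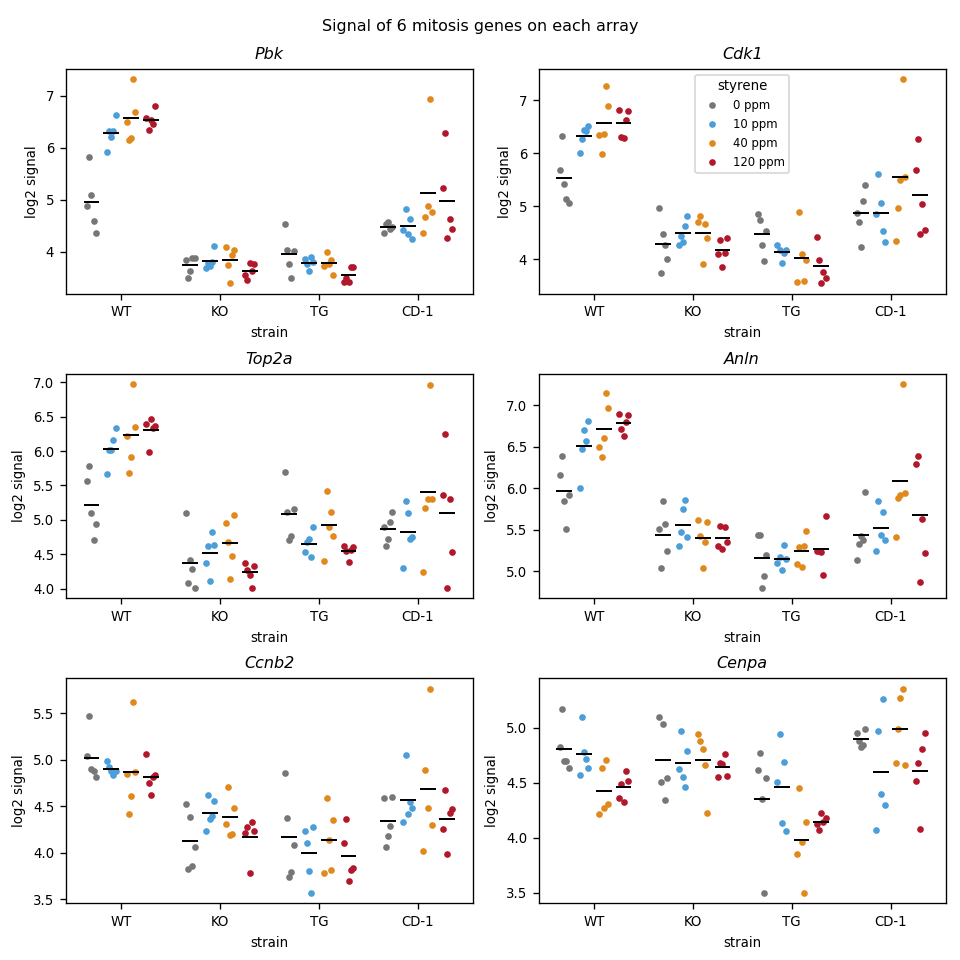
Log2 signal (y axis) of Pbk, Cdk1, Top2a, Anln, Ccnb2 and Cenpa in every array, by strain (x axis) and dose in ppm (colour), with group means as lines. In WT Pbk rose from 4.37 to 5.82 in air to 6.34 to 6.80 at 120 ppm, while in KO it stayed between 3.40 and 4.11 at all doses.

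The 11 members below the filter had no test in the main comparison. Plk1, the polo-like kinase of mitotic entry, passed 4.28 in 1 array, Melk in 4, Cenpe and Kif20a in 3 each and Kif11 in 1. With every gene of 1 symbol tested, a choice that lets such low signals in, Melk, a kinase of proliferating cells, had changes of 0.54, 0.58 and 0.71 in WT and passed at all 3 doses (adjusted p = 0.0185, 0.00614 and 0.00142 by limma). Foxm1, the transcription factor that activates many of these genes, passed at 40 ppm (0.40 ± 0.13, adjusted p = 0.0354 by limma), as did Ttk (0.32 ± 0.10, adjusted p = 0.0334), and Kif11, the motor that separates spindle poles, passed at 120 ppm (0.48 ± 0.11, adjusted p = 0.00404). The other Foxm1 probe sets gave 0.10, -0.04 and -0.04 at 40 ppm, and the second Ttk set gave -0.09. The second Kif11 set gave 0.18 at 120 ppm. All of these other sets were below the filter in every array. Plk1 had 0.09, 0.20 and 0.26 ± 0.11 (adjusted p = 0.7, 0.233 and 0.109 by limma).

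No member passed the test between doses. In WT, 0 of 27 passed at 40 against 10 ppm, at 120 against 10 ppm and at 120 against 40 ppm by limma, against 0.947%, 0.903% and 0% of all genes (0.324% higher and 0.622% lower in the first, 0.622% and 0.281% in the second), and at an unadjusted p under 0.05 there were 1, 1 and 0, all lower at the higher dose. Of all 11406 genes 1748, 1533 and 839 met that p in WT, in either direction. The median member differed by 0.16 between 40 and 10 ppm, by 0.13 between 120 and 10 ppm and by -0.00 between 120 and 40 ppm. In KO, TG and CD-1 no member passed between doses by limma. All genes called there came to 0.00877% at 120 against 10 ppm in KO and 0% in the other 8 comparisons. At an unadjusted p under 0.05, for 40 against 10, 120 against 10 and 120 against 40 ppm, KO had 1, 0 and 0 members higher and 0, 2 and 7 lower, TG had none higher and 2, 5 and 2 lower, and CD-1 had 0, 1 and 0 higher and 0, 0 and 3 lower. Among all genes 582, 520 and 506 met that p in KO, 840, 863 and 248 in TG, and 461, 668 and 555 in CD-1. The median difference between 120 and 40 ppm was -0.20 in KO, -0.31 in CD-1 and -0.12 in TG.

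Other genes of the cell cycle were set beside the members from lists that do not share genes with them. In WT, 29, 35 and 35 of 39 DNA replication genes rose at 10, 40 and 120 ppm (74.4%, 89.7% and 89.7%). They were led at 120 ppm by Uhrf1, which maintains DNA methylation at the fork, at 1.63 ± 0.12, and Rrm2, the ribonucleotide reductase subunit, at 1.40, with Pole and Cdt1 at 1.23 and 0.84. Of 36 other tested mitosis genes 7, 13 and 15 rose, among them Cdca5 (sororin, which holds sister chromatids together) by 1.46 ± 0.21 and Ncapg2 (condensin II) by 0.78 ± 0.07 at 120 ppm, and none fell. Of 15 G1/S regulators 3, 6 and 6 rose. Of 20 cell cycle inhibitors and p53 arrest genes 4, 7 and 7 rose and 1, 2 and 2 fell, with Gadd45g at 1.13 and Chek1, the replication checkpoint kinase, at 0.90 at 120 ppm. The lists were not tested against each other.

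**Figure D3:**
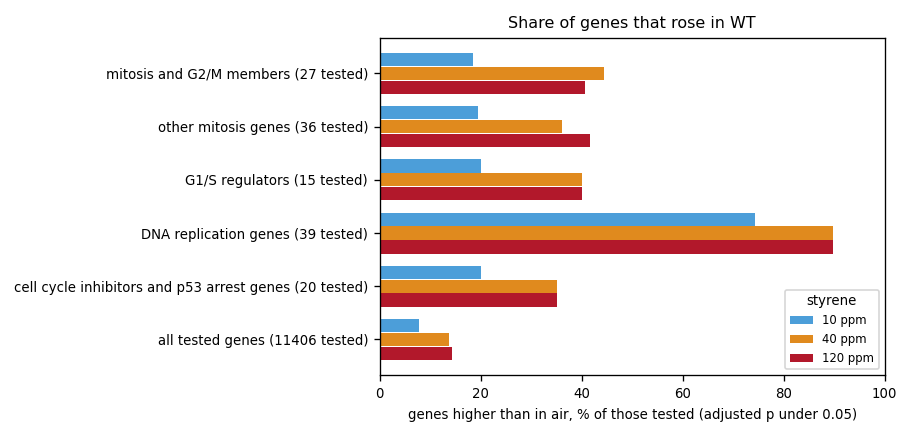
Share of tested genes that were higher than air in WT (bar length, x axis, %), by dose (colour), for the mitosis members, 4 other cell cycle lists and all tested genes. DNA replication genes stand at 74.4%, 89.7% and 89.7%, the mitosis members at 18.5%, 44.4% and 40.7%, and all genes at 7.67%, 13.7% and 14.3%.

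Club cell markers were lower for 6, 10 and 9 of 11 at 10, 40 and 120 ppm, and their mean log2 level per array went from 11.26 to 11.45 in air to 10.84 to 11.16 at 10 ppm, 10.29 to 10.81 at 40 ppm and 10.58 to 10.80 at 120 ppm, with no overlap between air and any dose; the lowest single marker value in any WT array was 5.74. Ciliated cell markers were lower for 1, 3 and 4 of 10 and macrophage markers for 2, 3 and 4 of 11, against 4.9%, 12.4% and 9.65% of all genes lower. Of 10 fibroblast markers 2, 3 and 3 were higher, and of 8 neutrophil markers 1 at each dose, against 7.67%, 13.7% and 14.3% of all genes higher, so the neutrophil count lay near that share. Of cells that divide in blood-forming organs, 0 of 3 tested thymocyte, 0 of 2 erythroid and 0 of 7 B cell markers passed at any dose by limma. At an unadjusted p under 0.05, 1 B cell marker was higher at 10 ppm, and 2 B cell markers and 1 erythroid marker at 120 ppm. Of all 11406 genes 3143 and 4142 met that p at 10 and 120 ppm, in either direction. The thymocyte markers had mean levels of 4.93 to 5.32 in air and 5.06 to 5.29 at 120 ppm. The part of the club, ciliated, macrophage and fibroblast markers in the mitotic change was not tested.

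In the other 3 strains no member passed against air at any dose by limma. All genes called there, in either direction, came to 0% at each dose in KO, to 0%, 0% and 0.0701% at 10, 40 and 120 ppm in TG (0.0614% higher at 120 ppm), and to 0%, 0.00877% and 0.0175% in CD-1. At an unadjusted p under 0.05, KO had 1, 2 and 0 members higher and none lower, TG had 0, 0 and 1 higher and 2, 2 and 8 lower, and CD-1 had 0, 2 and 0 higher and none lower. In either direction, 649, 564 and 596 of all 11406 genes met that p in KO and 1579, 867 and 1439 in TG. The counts for all genes in CD-1 were 272, 442 and 597. The median change was 0.10, 0.12 and -0.04 in KO, -0.04, -0.08 and -0.21 in TG and 0.04, 0.30 and 0.01 in CD-1. The level filter was met differently by strain, which bears on these counts: the mean in air was above it for 21 of the 27 members in WT and 18 in CD-1, but 14 in KO and 13 in TG, and Pbk exceeded it in 20 of 20 WT arrays, 0 KO arrays, 1 TG array and 18 CD-1 arrays.

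Pbk in KO was 3.84, 3.50, 3.63, 3.89 and 3.89 in air and 3.55, 3.46, 3.79, 3.64 and 3.77 at 120 ppm, with changes of 0.08, 0.10 and -0.11 ± 0.12 at the 3 doses. The air and 120 ppm arrays overlapped. Cdk1, above the filter in 12 of 20 KO arrays, was 4.96, 3.74, 4.47, 4.27 and 4.01 in air and 4.11, 4.37, 3.85, 4.12 and 4.40 at 120 ppm, with changes of 0.21, 0.21 and -0.12 ± 0.19, and these groups overlapped as well. Of the 13 members that rose in WT at any dose, 12, 10 and 2 had a positive change in KO at 10, 40 and 120 ppm.

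In TG the unadjusted differences mostly pointed down. Counted in either direction, at 10 and 40 ppm they were no more frequent among members than among all genes. The share of all genes lower at that p is not given, so the downward counts have no background here. The median change of all genes in TG was 0.06 at 10 ppm and 0.05 at 40 ppm. Top2a was 5.69, 5.11, 4.71, 4.76 and 5.15 in air and 4.62, 4.56, 4.39, 4.57 and 4.60 at 120 ppm, all below air, as in 0.281% of genes. Its change was -0.54 ± 0.17 (adjusted p = 0.209 by limma), that of Cdk1 -0.61 ± 0.21 (adjusted p = 0.267) and that of Pbk -0.41 ± 0.14 (adjusted p = 0.228). Of the 13 members that rose in WT, 3, 3 and 1 had a positive change in TG.

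In CD-1 the spread of the members was wider. The SE of the 120 ppm change had a median of 0.241 over the members there, against 0.164 in WT, 0.121 in KO and 0.148 in TG. Over all genes it was 0.107 in CD-1, 0.083 in WT, 0.0894 in KO and 0.109 in TG. Cdk1 was 4.87, 4.71, 4.23, 5.10 and 5.41 in air, 4.34, 4.98, 5.50, 7.40 and 5.55 at 40 ppm, and 5.69, 6.27, 4.47, 5.05 and 4.55 at 120 ppm, with changes of 0.69 ± 0.44 and 0.34 ± 0.44 at 40 and 120 ppm. Replicate 4 at 40 ppm stood above every other array, and without it the 40 ppm change of Cdk1 was 0.23 ± 0.36. Spc25 had the lowest p at 40 ppm, with a change of 0.59 ± 0.21 (unadjusted p = 0.0106, adjusted p = 1 by limma) and of 0.38 ± 0.17 without replicate 4, and at 10 ppm its values of 4.44, 4.54, 4.67, 4.86 and 4.74 lay above those in air, as in 0.175% of genes. All 13 members that rose in WT had a positive change in CD-1 at 40 ppm, with a median of 0.45, against 8 and 11 at 10 and 120 ppm. Without replicate 4, 10 of the 13 were positive at 40 ppm and their median was 0.14, and the median of the 27 members went from 0.30 to 0.08.

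Single arrays stood apart. The mean over the 27 members, relative to the strain's air mean, was 1.39 in CD-1 40 ppm replicate 4, where every one of the 27 was the highest of its group, as were 32.7% of all genes. It was 0.63 in CD-1 120 ppm replicate 2 (21 members and 19.6% of all genes highest), 0.90 in WT 40 ppm replicate 4 (25 members, 25.4%) and 0.45 in WT air replicate 2 (25 members, 20.9%). Of the 39 DNA replication genes 36, 33, 29 and 14 were above the rest of the group in these arrays (92.3%, 84.6%, 74.4% and 35.9%), so WT air replicate 2 lay nearest to the share of all genes. Of the 3 thymocyte markers 0, 1, 1 and 1 were above the rest, and of the 2 erythroid markers none. Markers of cornified and squamous epithelium also varied between arrays. Their highest mean level was 9.47 in WT air (group median 4.72), 9.45 in WT at 40 ppm (5.37) and 7.98 in CD-1 air (4.31). In CD-1 at 40 and 120 ppm the highest was 4.76 and 4.35. Whether the arrays with these high levels are those singled out is not given here. With WT air replicate 2 and WT 40 ppm replicate 4 both left out, 11 members passed at 10 ppm in place of 5. WT air replicate 2 was singled out because most members were highest in it. Leaving it out thus lowers their air mean and favours higher changes. The share of all genes called in that setting is not given.

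**Figure D4:**
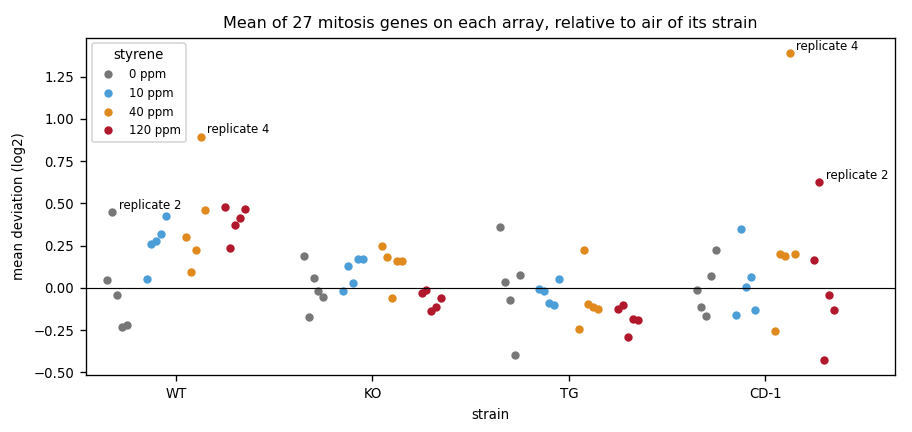
Mean over the 27 tested members of each array's deviation from its strain's air mean (y axis, log2 units), by strain (x axis) and dose in ppm (colour), 1 point per array. CD-1 40 ppm replicate 4 stands at 1.39, WT 40 ppm replicate 4 at 0.90, CD-1 120 ppm replicate 2 at 0.63 and WT air replicate 2 at 0.45.

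Whether WT responded differently was tested directly, as the change in WT minus the change in another strain. Against KO, 1, 3 and 8 members had a larger change in WT at 10, 40 and 120 ppm and none a smaller one by limma, against 4.48%, 7.11% and 7.05% of all genes larger. Against TG, 3, 7 and 9 were larger and none smaller, against 2.65%, 3.78% and 3.87%. These comparisons share the WT arrays. Pbk was larger in WT in all 6, by 1.26, 1.52 and 1.69 ± 0.27 against KO and by 1.51, 1.81 and 2.00 ± 0.28 against TG. Cdk1 was larger than in KO at 120 ppm by 1.16 ± 0.31 (adjusted p = 0.0118 by limma), and than in TG by 1.14, 1.49 and 1.65. Top2a was larger than in KO at 120 ppm by 1.23 ± 0.30 (adjusted p = 0.00485 by limma), and than in TG by 1.24, 1.17 and 1.63. At 120 ppm Ccna2, Birc5, Ect2 and Anln also exceeded both strains, Bub1 exceeded KO, and Aurkb and Mki67 exceeded TG. Several of these members had low signal in the other strain. Pbk and Birc5 exceeded the level filter in 0 KO arrays and 1 TG array, and Ect2 in none of either strain. Ccna2 and Aurkb exceeded it in 0 TG arrays. Whether low signal made their change smaller there was not tested. Single arrays moved these counts, and the share of all genes called in such runs is not given. Against KO there were 8 at 40 ppm without WT air replicate 2 and 5 at 120 ppm without WT 120 ppm replicate 5, and 1 and 3 at 40 and 120 ppm with all 80 arrays in 1 fit. Against TG there were 11, 13 and 12 at 40 ppm without TG air replicate 4, WT air replicate 2 and WT 40 ppm replicate 2, and 14 at 120 ppm without WT air replicate 2.

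Between CD-1 and WT no member's response differed at any dose by limma, against 1.89%, 1.61% and 4.37% of all genes, and at an unadjusted p under 0.05 there were 2, 1 and 1, all smaller in CD-1. Of all 11406 genes 1513, 1923 and 2109 met that p, in either direction. The intervals were wide. For Cdk1 the CD-1 response was smaller by 0.70 at 120 ppm, with a 95% interval of -1.75 to 0.36, and for Pbk by 1.10, from -2.05 to -0.14 (adjusted p = 0.188 by limma). The median member was -0.14, -0.02 and -0.34 at the 3 doses. These values do not show that the strains responded alike, and 1 member differed at 40 ppm without CD-1 40 ppm replicate 4 and 1 at 120 ppm without CD-1 120 ppm replicate 2.

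In air, without styrene, some mitotic genes had lower signal in each other strain than in WT. After each array was centred on its median, 12 of 27 members were lower and none higher in KO than in WT, against 5.23% of all genes lower and 8.44% higher. In TG 9 were lower and 1 higher (13.6% and 22.1% of all genes), and in CD-1 7 were lower and none higher (11.8% and 24%). The median difference of all genes was 0.03, 0.08 and 0.04 for KO, CD-1 and TG. The counts are a description and support nothing, since several of these members met the level filter through the WT arrays where they were high: of the 12 lower in KO 8 exceeded it in under 5 KO arrays, of the 7 lower in CD-1 2 exceeded it in under 5 arrays of that strain, and of the 9 lower in TG 5 did so. Ndc80 exceeded it in 8 WT arrays and no other, Hmmr in 5 WT arrays and 1 CD-1 array, and Birc5, Ect2 and Pbk in 20 WT arrays and 0 KO arrays. For such members, selection through WT arrays favoured a lower value in the other strains. How far it did so was not tested. Mki67, above it in 18 or more arrays of KO and TG, was 6.31 ± 0.34 (SD, n = 5) in WT air, 5.68 ± 0.39 in CD-1, 5.10 ± 0.43 in TG and 4.69 ± 0.33 in KO as deposited. Centred, it was lower than in WT by -1.22 in KO (adjusted p = 0.001 by limma) and -0.69 in TG (adjusted p = 0.0141), and its difference in CD-1 was -0.32 (adjusted p = 0.241). Cenpf, Nusap1 and Spc25 were lower than in WT in all 3 strains: Cenpf by -0.98, -0.60 and -0.66 in KO, CD-1 and TG, Nusap1 by -0.97, -0.55 and -0.57, and Spc25 by -0.62, -0.58 and -0.60. The limit of the filter holds for them too. Cenpf exceeded it in 17 WT, 3 CD-1, 0 KO and 0 TG arrays, Nusap1 in 3 KO arrays and Spc25 in 1 TG array. Ect2 and Ccna2, given next, exceeded it in 0 TG arrays. Ect2 was lower in KO (-0.94) and TG (-0.71) and in CD-1 had -0.01. Cdk1 (-0.84) and Pbk (-0.81) were lower in KO and Ccna2 in TG (-1.06) and CD-1 (-0.58). Bub1b was lower in CD-1 by -0.80. Racgap1, above the filter in 4 WT arrays and 0 TG arrays, was higher in TG by 0.44 (adjusted p = 0.0135 by limma) after centring, but as deposited it was 3.78 in TG and 3.85 in WT, so its direction turned with the scale. These 3 comparisons share the WT air arrays.

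Scale bears on these counts. As deposited, with no centring, 23, 24 and 19 members were lower than in WT in KO, TG and CD-1. WT arrays had the highest medians (4.53 to 4.60), so signal at large was lower in the other strains on that scale. The share of all genes called there is not given, so these counts describe no trait of the members. Strain and any processing that differed by strain cannot be told apart. Without WT air replicate 2, 7 members were lower in KO than in WT in place of 12. Between TG and KO, Pttg1 (2.85) and Top2a (0.83) were higher and Ccna2 (-0.72) and Nek2 (-0.64) lower in TG, 4 of 27 against 13.9% of genes higher and 11.8% lower, and 7 passed without TG air replicate 2. The Ccna2 and Nek2 gaps were smaller in another probe set of each gene, not tested here. As deposited, the other Ccna2 set (above the filter in 47 arrays) had air means of 4.38 in TG and 4.51 in KO, against 3.75 and 4.58 in the one used. Another Nek2 set (32 arrays) had 3.99 and 4.15, against 4.98 and 5.74.

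Pttg1, securin, which inhibits separase until anaphase, had the largest difference from WT of any tested member in both KO and CD-1. Its signal was 11.47 to 11.85 in the 20 WT arrays and 10.39 to 11.45 in 19 of the 20 TG arrays. It was 7.94 to 9.02 in CD-1 and 7.27 to 7.75 in KO. TG air replicate 4 stood at 7.45, inside the KO range. As deposited, no strain overlapped another except through that array. The WT and TG ranges lay next to each other (from 11.47 and up to 11.45), and WT arrays had higher medians than TG arrays. In air KO was lower than WT by -3.72 ± 0.43 (adjusted p = 2.01e-05 by limma) and CD-1 by -2.73 (adjusted p = 6e-05), while TG differed from WT by -0.87 (adjusted p = 0.123) with all arrays and by -0.24 ± 0.18 (adjusted p = 0.326) without TG air replicate 4. The 3 Pttg1 probe sets had air means of 11.56, 9.41 and 6.10 in WT, 10.18, 8.14 and 5.26 in TG, 8.52, 6.87 and 3.92 in CD-1, and 7.45, 6.42 and 4.23 in KO. WT was highest and TG next in each of them. Dose did not move it past the test in any strain. In TG its change was 0.70, 0.70 and 0.95 ± 0.49 at 10, 40 and 120 ppm with all arrays and 0.02, 0.02 and 0.27 without air replicate 4.

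TG air replicate 4 was set against the other arrays gene by gene. Npr1, a natriuretic peptide receptor, and Pttg1 were the 2 genes whose 19 other TG arrays and 20 KO arrays lay more than 1 log2 unit apart. For Npr1 it had 4.21, near the TG mean of 4.19 and not the KO mean of 6.54, and for Pttg1 7.45, near the KO mean of 7.51 and not the TG mean of 10.94. Its array median of 3.84 was the lowest of the TG arrays, the next being 4.07.

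**Figure D5:**
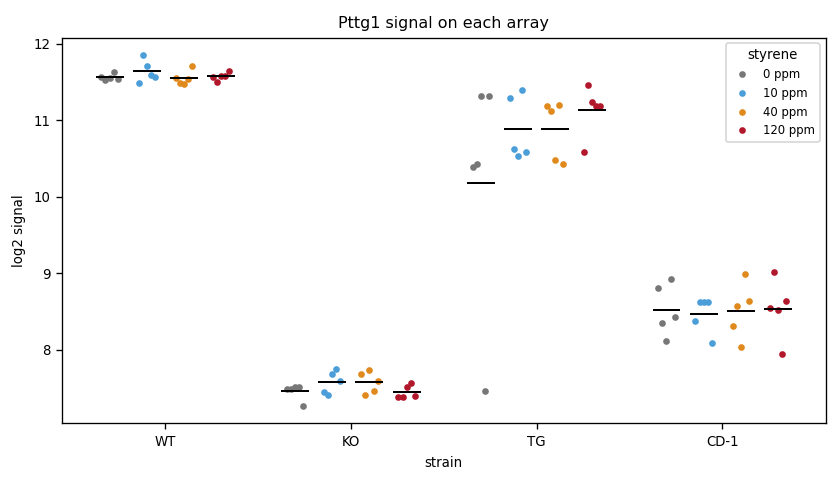
Log2 signal of Pttg1 (y axis) in each array, by strain (x axis) and dose in ppm (colour), with group means as lines. WT lies at 11.47 to 11.85, KO at 7.27 to 7.75, CD-1 at 7.94 to 9.02 and TG at 10.39 to 11.45 except air replicate 4 at 7.45.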

How the data were processed

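Whole-lung RNA of 80 mice was hybridised to Affymetrix arrays, 1 mouse per array. The authors deposited log2 signal of 45037 probe sets. Per the submitters' processing notes, RMA and Partek were used; their versions, and whether all strains were normalised together, were not stated in the sources used here. Probe sets with 1 gene symbol (28898) were kept, 15588 with none and 551 with several were not used, and each of 17097 genes was read from its brightest probe set (highest mean of the 80 arrays). Genes above the table's median of 4.28 in at least 5 of 80 arrays (11406) were tested.

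Log2 values were fitted with limma 3.58.1 (R 4.3.3). Dose effects came from the 20 arrays of a strain (16 residual df), response differences from the 40 arrays of both strains, and strain differences from the 20 air arrays, each centred on its median. P-values were Benjamini-Hochberg adjusted over all tested genes per comparison, with 0.05 as the threshold, and errors are SE unless marked SD. Nothing beyond the labels' "biological replicate" says how animals were housed or arrays batched, and array number limits the precision. The genes named with array values are the 12 members with the lowest p in any dose comparison, besides Mki67, Cdk1, Plk1 and Foxm1, and at most 4 genes of lowest p in each other list. Pttg1, Ccnb2 and Spc25 and the arrays singled out were chosen after their values were seen. The members and lists were chosen with earlier results of these data known. The fitting script was tested on simulated data. Alternatives were other filters, scalings, probe sets, variance models and fits, and each array left out in turn.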

Additional observations from a re-analysis of the deposited data

Results flagged for a closer look

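In 21 of 256 groups of 5 arrays, 1 array stood apart from the other 4 by Dixon's criterion, which chance alone meets in about 1 of 20 groups (15 genes and the members' mean, each in 16 groups). CD-1 40 ppm replicate 4 stood high in the mean deviation of the members (1.39), Pbk (6.94), Anln (7.26), Aurkb (5.26) and Plk1 (4.69). WT air replicate 2 stood high in Birc5 (5.20) and Ect2 (5.13), and WT 40 ppm replicate 4 in Ect2 (6.23). Pttg1 stood low in TG air replicate 4 (7.45) and KO air replicate 5 (7.27) and high in WT air replicate 4 (11.63). The remaining ones were Pbk in KO 10 ppm replicate 5 (4.11), Top2a in TG 120 ppm replicate 3 (4.39) and WT 120 ppm replicate 2 (5.99), Ccna2 in CD-1 air replicate 2 (3.83) and KO air replicate 1 (5.13), Bub1 in CD-1 air replicate 3 (4.10) and WT 10 ppm replicate 2 (4.76), Mki67 in CD-1 10 ppm replicate 1 (5.06) and TG 120 ppm replicate 1 (5.12), and Plk1 in CD-1 120 ppm replicate 5 (3.13).

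The change against air differed between strains for the following members by limma's test of the difference. WT exceeded KO at 10 ppm in Pbk (1.26), at 40 ppm in Ccna2 (0.79), Pbk (1.52) and Anln (0.78), and at 120 ppm in Cdk1 (1.16), Ccna2 (1.01), Bub1 (0.72), Pbk (1.69), Birc5 (0.79), Ect2 (0.65), Anln (0.86) and Top2a (1.23). WT exceeded TG at 10 ppm in Cdk1 (1.14), Pbk (1.51) and Top2a (1.24), and at 40 ppm in Cdk1 (1.49), Pbk (1.81), Mad2l1 (0.65), Birc5 (0.85), Ect2 (0.79), Anln (0.67) and Top2a (1.17). At 120 ppm it exceeded TG in Cdk1 (1.65), Ccna2 (1.05), Aurkb (0.78), Pbk (2.00), Birc5 (1.09), Ect2 (0.82), Anln (0.71), Top2a (1.63) and Mki67 (0.98). The 2 sets of comparisons share the WT arrays, and Pbk, Birc5 and Ect2 exceeded the level filter in 0 KO arrays and at most 1 TG array.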

How the results depend on the processing

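Counts of members called are given first for settings that moved them by over 1.5 times; the cause was not tested. With all 80 arrays in 1 fit there were 2 in WT at 10 ppm, 1 and 3 for WT against KO at 40 and 120 ppm, and 1 for CD-1 against WT at 10 ppm. With WT air replicate 2 and WT 40 ppm replicate 4 both left out, a choice made after seeing the data, there were 11 in WT at 10 ppm, 4 and 5 for WT against KO at 10 and 40 ppm, and 5 and 16 for WT against TG at 10 and 120 ppm. Quantile normalization gave 12 and array weights 11 for WT against TG at 40 ppm, and air values without median subtraction gave 23, 24 and 19 for KO, TG and CD-1 against WT. The share of all genes called in these settings, or in the runs below that leave out an array, is not given.

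Leaving out each array in turn gave 1 to 9, 10 to 13 and 9 to 13 members in WT at 10, 40 and 120 ppm. It gave 1, 2 to 8 and 5 to 11 for WT against KO, 2 to 4, 5 to 13 and 8 to 14 for WT against TG, and 0, 0 to 1 and 0 to 1 for CD-1 against WT. In air it gave 7 to 15, 10 to 13 and 6 to 8 for KO, TG and CD-1 against WT and 4 to 7 for TG against KO, and 0 for every other comparison. Pbk passed in WT at each dose in all these runs, as did Cdk1, Ccna2, Aurkb, Mad2l1, Birc5, Anln and Top2a at 40 and 120 ppm and Ect2 at 40 ppm, while Cenpa was lost in 4 runs at 40 ppm and 6 at 120 ppm.

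With the replicate block, 4, 10 and 11 members passed in WT, 1, 2 and 8 for WT against KO and 3, 6 and 9 for WT against TG. In air there were 12, 10 and 8 for KO, TG and CD-1 against WT and 4 for TG against KO. Same-numbered samples had a mean correlation of -0.001 (WT), 0.051 (KO), 0.008 (TG) and 0.011 (CD-1 strain), and 3, 5, 5 and 4 of 20 arrays correlated best with their own number, so the number was not taken as pairing. Of 97 single calls followed, 33 of them in air, Racgap1 in TG against WT in air changed sign, to -0.0714 (adjusted p = 0.618 by limma) without median subtraction; no other did in the settings run. With no level filter 7 were lost and under the block 8, and with all arrays in 1 fit 21 of the 64 outside air. Racgap1 and Mki67 in WT at 40 ppm were lost in each of these settings. Spc25 in WT at 40 ppm was lost with no level filter and under the block. In air Birc5, Ndc80, Tpx2 and Cdk1 in KO were lost in 9, 8, 7 and 4 of the 10 runs that left out an array.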
